A study of Mus musculus with 5 samples.

Results

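Transcripts of the mitochondrial genome, and of the nuclear genes that copy it, transcribe it and process its RNA, were measured in mouse 2-cell embryos by RNA-seq. Members were taken by gene symbol: the 13 mitochondrial protein-coding genes and 20 nuclear genes. All 33 were among the 32285 symbols of the deposited table. Eggs of superovulated females aged 6 to 9 weeks were fertilised in vitro for about 6 h with sperm of males aged 12 to 16 weeks. The labels name no strain or genotype. Zygotes with a pair of pronuclei were then kept for 24 h in KSOM culture medium, with 25 nM PNMC in 3 libraries and with an equal volume of the solvent DMSO in the 2 control libraries. The abbreviation PNMC is not spelled out in the labels, which also do not say how many embryos a library held or whether libraries came from separate cultures. The replicate spread behind each p-value may for that reason be technical.

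Mitochondria carry a small circular genome whose strands, called heavy and light, are each transcribed into long precursors. Transfer RNAs lie between most of the coding genes, and their excision releases the messenger RNAs. All of the encoded proteins are subunits of respiratory complexes I, III and IV or of the ATP synthase, complex V, while every protein needed to copy and express this genome is imported from the cytosol. Mouse embryos at this stage live on mitochondria inherited from the egg, and replication of mitochondrial DNA is largely paused until later in preimplantation development.

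Of the 13 coding genes, 12 belong to transcripts of one orientation and mt-Nd6 alone lies on the opposite strand. In 3 places the coding genes overlap by more than a base, and these are shown because a read there cannot be given to a single gene. They were read from the GENCODE M21 transcripts, whose coordinates are on the build GRCm38, and all are written 5′ to 3′ on the plus strand, with the overlap in capitals. The end of mt-Atp8 and the start of mt-Atp6 share 43 bases (chrM:7927-7969), the end of mt-Nd4l and the start of mt-Nd4 share 7 bases (chrM:10167-10173), and the ends of mt-Nd5 and mt-Nd6 share 14 bases on opposite strands (chrM:13552-13565). Not shown is a shared base at chrM:8607, where mt-Atp6 ends and mt-Co3 starts.
mt-Atp8 into mt-Atp6: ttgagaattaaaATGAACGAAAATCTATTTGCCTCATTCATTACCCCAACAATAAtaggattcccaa
mt-Nd4l into mt-Nd4: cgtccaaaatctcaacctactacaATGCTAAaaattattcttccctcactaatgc
mt-Nd5 into mt-Nd6: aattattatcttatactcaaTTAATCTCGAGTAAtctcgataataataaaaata
The libraries were made with Smart-seq2, which keeps no strand information, so antisense reads over mt-Nd6 or its neighbours cannot be told from those of the gene. How the counting treated strands and overlaps is not stated. Copies of mitochondrial DNA inserted in the nuclear genome are a further source of uncertainty. At least 97% of the 50-base words of mt-Nd3, mt-Nd4l, mt-Co2, mt-Co3 and mt-Atp6 were found in an annotated nuclear transcript. The share was 62.2% for mt-Nd4, 51.1% for mt-Co1, 8.19% for mt-Nd2 and 7.61% for mt-Nd5. No such word was found for mt-Nd1, mt-Nd6, mt-Cytb and mt-Atp8. The 14 nuclear genes that shared words were not among the table's symbols, so how reads were divided could not be measured, and the values of genes with a high share are uncertain for that reason.

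The embryo markers Zp3, Dppa3, Nlrp5, Gdf9, Bmp15, Btg4, Zscan4d, Zfp352 and Usp17la were present in every library, with summed levels of 8105 and 8534 in controls and 8193 to 8849 after PNMC. Markers of cumulus cells summed to 40.1 and 42.4 in controls and 29.8 to 44.4 after PNMC, with 3 of 12 (Ptx3, Inhba and Foxl2) at 0 throughout. The 10 sperm markers summed to 5.85 and 8.09 against 6.88 to 12.2, with Prm1, Tnp2, Smcp and Spem1 at 0. The 8 blood markers summed to 14.6 and 25.7 against 10.6 to 13.4, with Hbb-bt at 0, and the 6 oviduct markers to 59.4 and 60.3 against 49.3 to 91.6, with Pax8 at 0. The oviduct sum was mostly Epcam, at 54.6 and 52.8 in controls and 43.6 to 82.9 after PNMC, while Ovgp1, Foxj1 and Muc1 did not exceed 1.46 in any library. Amhr2 (17.1 to 26.1 over the 5 libraries) and Gja1 (6.23 to 11.9) made up most of the cumulus sum, and Hba-a1 and Cd74 most of the blood sum. The blood marker sum was lower in all 3 PNMC libraries than in both controls, and its part in the results was not tested. Values are a normalised signal. Its unit and the number of reads behind it are unknown. Correlations of log2 values between libraries ran from 0.9605 to 0.9641 within a group and from 0.9592 to 0.9632 between groups.

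Mitochondrial messenger RNAs were among the most abundant transcripts of the 2-cell embryo. Their 13 genes held 7.20% of the summed signal in the first control library and 7.01% in the other, with 6.31%, 7.51% and 6.55% after PNMC (libraries 1, 2 and 3). The means were 7.10% ± 0.137 (SD, n = 2) and 6.79% ± 0.636 (SD, n = 3), and the controls lay between PNMC library 2 and the other PNMC libraries. These are shares of bulk libraries, in which fewer mitochondria, less RNA in each and more signal from other genes cannot be told apart. In every library 11 of the 13 genes stood among the 100 highest of the table, and mt-Cytb was second in each. Complex I, with 7 of the genes, held 30.0% ± 0.331 of the mitochondrial signal in controls and 29.4% ± 1.20 after PNMC. Complex III, with mt-Cytb alone, held 33.8% ± 0.330 and 33.3% ± 0.929. Complex IV held 17.3% ± 0.0460 and 17.7% ± 0.517, and complex V held 18.9% ± 0.707 and 19.7% ± 0.563.

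Cytochrome b, the electron-carrying core of complex III, had the highest level of the coding genes. The value of mt-Cytb was 10928 and 10504 in the controls and 9670.3, 11144 and 9749.8 after PNMC. PNMC library 2 lay above both controls and the other PNMC libraries below them. The log2(value + 1) difference between PNMC and control was -0.076 (limma 95% interval -0.23 to 0.081).

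Complex V takes subunits of its membrane part, which conducts protons, from a pair of mitochondrial genes. mt-Atp6 was at 3594 and 3824 in controls and at 3491, 4273 and 3401 after PNMC. mt-Atp8, a short subunit whose reading frame runs into that of mt-Atp6, was at 2321 and 2255 in controls and at 2149, 2533 and 2272 after PNMC. In both genes PNMC library 2 was the highest, and the groups overlapped. Their ratio, mt-Atp8 to mt-Atp6, was 0.646 and 0.590 in controls and 0.616, 0.593 and 0.668 after PNMC.

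Complex IV, cytochrome c oxidase, takes its catalytic core from 3 mitochondrial genes. mt-Co1, which binds the oxygen-reducing centre, was at 1953 and 1658 in controls and at 1472, 1917 and 1835 after PNMC. mt-Co2, which receives electrons from cytochrome c, was at 894 and 916 in controls and at 815, 1063 and 815 after PNMC. mt-Co3, the remaining core subunit, was at 2731 and 2843 in controls and at 2564, 3225 and 2571 after PNMC. PNMC library 2 was the highest of the 5 for mt-Co2 and mt-Co3, control library 1 for mt-Co1, and the groups overlapped in all of them. The ratio of mt-Co3 to mt-Co2 stayed between 3.03 and 3.15 over the 5 libraries, and that of mt-Co3 to its neighbour mt-Atp6 between 0.734 and 0.760. The ratio of mt-Co1 to mt-Co2 varied more: it was 2.18 in control library 1 and 2.25 in PNMC library 3, and 1.81, 1.81 and 1.80 in control library 2 and PNMC libraries 1 and 2.

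Complex I takes core subunits of its membrane arm from the mitochondrial genome. mt-Nd1 was at 3799 and 3930.05 in controls and at 3100 (PNMC library 1), 4014 (PNMC library 2) and 3562 (PNMC library 3). mt-Nd2 was at 1252 and 1346 in controls and at 1054, 1352 and 1114 after PNMC. For both, PNMC library 2 was above the controls and the other PNMC libraries below them. The log2 differences were -0.13 (95% interval -0.34 to 0.083) for mt-Nd1, which was -0.031 without PNMC library 1, and -0.15 (-0.39 to 0.084) for mt-Nd2. mt-Nd4 was at 2044 and 1823 in controls and at 1693, 1996 and 1943 after PNMC. mt-Nd4l, encoded just upstream and overlapping it, was at 1223 and 1154 in controls and at 1110 (PNMC library 1), 1272 and 1169 after PNMC. The ratio of mt-Nd4l to mt-Nd4 lay between 0.599 and 0.655 in the 5 libraries, with overlapping groups.

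The lowest levels were those of mt-Nd5, mt-Nd6 and mt-Nd3. mt-Nd5 was at 732 and 544 in controls and at 481, 623 and 670.7 after PNMC. mt-Nd6, the light-strand gene, was at 432 and 270.5 in controls and at 279.5, 328 and 397 after PNMC. In both, control library 1 was the highest, followed by PNMC library 3 and PNMC library 2. The highest value of mt-Nd6 was 1.60 times the lowest and that of mt-Nd5 1.52 times, against 1.15 to 1.33 times for the other mitochondrial coding genes. mt-Nd3 was at 244 and 263 in controls and at 269, 278 and 285 after PNMC. It was the only one of the 13 whose PNMC values did not overlap the controls: all 3 lay above both, as in 7.97% of all genes tested, while 11.9% of genes tested had all 3 below. The log2 difference of mt-Nd3 was 0.13 (SE 0.116, 95% interval -0.12 to 0.38, limma adjusted p = 0.993).

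**Figure D1:**
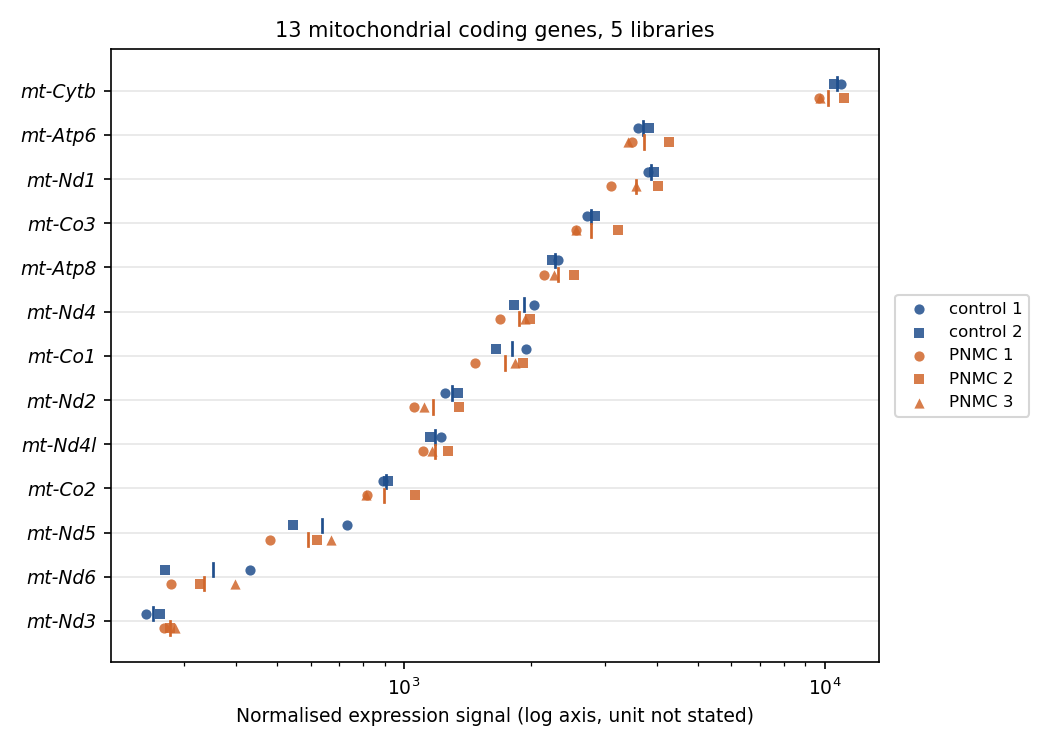
Normalised signal (log axis) of each mitochondrial coding gene, ordered by mean, with a point per library and a vertical bar at each group mean (2 control and 3 PNMC libraries). The genes run from mt-Cytb near 10399 down to mt-Nd3 near 268, and control and PNMC points overlap in all genes but mt-Nd3.

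The order of these levels was nearly the same in every library. Of the 13 genes, 9 held the same rank in all 5 libraries. The exceptions were a pair of neighbours that traded places, mt-Nd1 with mt-Atp6 at ranks 2 and 3, and another, mt-Nd2 with mt-Nd4l at ranks 8 and 9. Within each of those pairs the levels therefore did not differ beyond the spread of the libraries. The order is that of the values as listed, and whether the authors scaled them by gene length is not stated. Dividing each mean by the length of its annotated GENCODE transcript put mt-Atp8, the shortest at 204 bases, first and mt-Cytb second. It moved mt-Nd5, the longest at 1824 bases, to rank 13. Those lengths are the annotation's, where overlapping genes such as mt-Atp8 and mt-Atp6 are listed separately, and messenger RNA lengths were not measured.

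Differences between libraries within a group were as large as those between groups. PNMC library 1 had the lowest value for 9 of the 13 genes and PNMC library 2 the highest for 8. Control library 1 was the highest for the remaining genes other than mt-Nd3: mt-Nd4, mt-Nd5, mt-Nd6 and mt-Co1. Of those, mt-Nd5, mt-Co1 and mt-Nd4 are the longest of the 13, at 1824, 1545 and 1378 bases, while mt-Nd6 has 519 bases. The mean log2 deviation of the 13 genes from their averages was 0.071 and -0.024 in the controls and -0.16, 0.12 and -0.0066 after PNMC, so both controls lay inside the PNMC range.

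**Figure D2:**
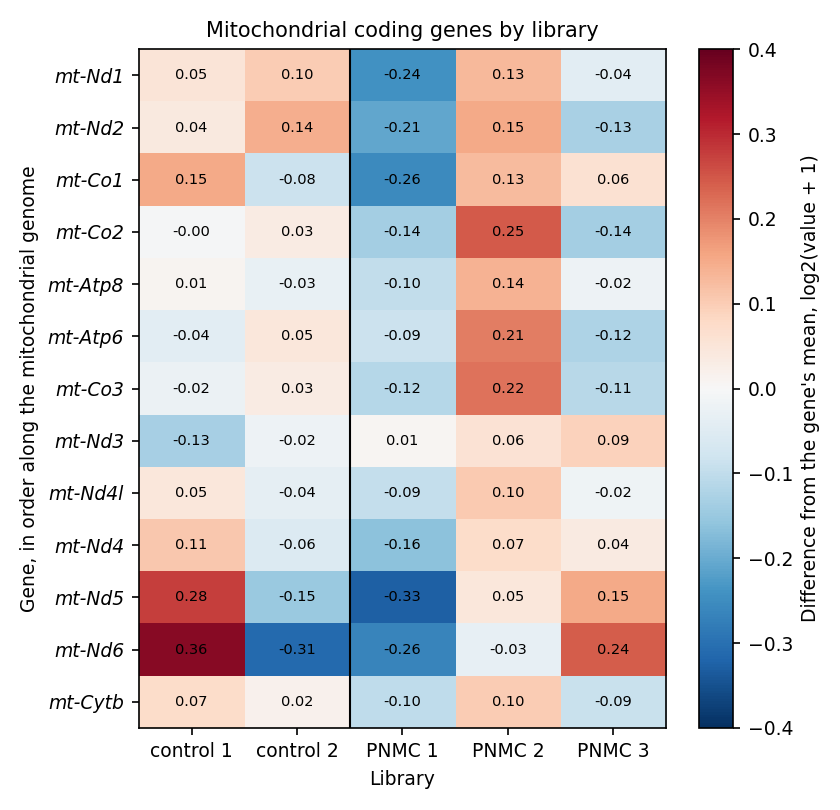
Difference of each library from the gene's mean over 5 libraries, on the log2(value + 1) scale, with genes in their order along the mitochondrial genome and libraries in columns. PNMC library 1 is below average for all genes except mt-Nd3, PNMC library 2 is above average for all except mt-Nd6, and mt-Nd6 has the widest range, from -0.31 in control library 2 to 0.36 in control library 1.

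The nuclear genes for replication, transcription and RNA processing were expressed at levels far below those of the genome they serve. Their means over 5 libraries ran from 0.259 for Slirp to 43.2 for Tfb2m, and 11 of the 20 stood above 7.09, the median level of all genes tested. A mean of at least 20 was reached by 5 genes: Tfb2m, Fastkd1, Tbrg4, Mtpap and Elac2. A mean under 3 was found for 5 others: Polg, Polg2, Tefm, Lrpprc and Slirp. A level is not comparable between nuclear genes beyond this coarse order, since length scaling is not stated. For reference, 22 nuclear genes for subunits of complexes I, III, IV and V had a median level of 14.2. By complex, in that order, the medians were 8.15, 12.5, 53.0 and 52.9. The 13 mitochondrial coding genes had a median of 1767, a ratio of 125 to that of the 22 genes.

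Replication of mitochondrial DNA needs a polymerase, a helicase and a single-strand binding protein. Tfam coats the DNA and also takes part in its transcription. Ssbp1, the single-strand binding protein, had the highest level of this group, at 15.7 and 16.8 in controls and 14.5, 15.9 and 8.85 after PNMC. Twnk, the helicase Twinkle, was at 7.09 and 5.28 in controls and at 7.71, 4.67 and 1.57 after PNMC. PNMC library 3 was the lowest for both. Polg, the catalytic subunit of the polymerase, was at 0.828 and 1.89 in controls and at 1.36, 0.234 and 2.50 after PNMC. Polg2, its accessory subunit, was at 0.832 and 1.98 in controls and at 0.820, 2.01 and 0.225 after PNMC. Libraries of the same group differed by up to 10.7 times in Polg and 8.94 times in Polg2. Tfam was at 4.06 and 1.81 in controls and at 3.91, 4.60 and 6.69 after PNMC. PNMC library 1 lay below control library 1 and the other PNMC libraries above both controls. Its log2 difference of 0.66 (SE 0.360, 95% interval -0.11 to 1.44, limma unadjusted p = 0.0885, adjusted p = 0.993) was 0.24 without control library 2 and 1.09 without control library 1.

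Transcription is carried out by the polymerase Polrmt with Tfam and Tfb2m at the promoter and Tefm during elongation. Tfb2m, which helps to melt the promoter, was the most abundant nuclear member, at 42.9 and 39.3 in controls and 39.5, 48.2 and 46.0 after PNMC, with overlapping groups. Polrmt was at 4.45 and 7.07 in controls and at 7.01, 4.57 and 2.65 after PNMC. Tefm was at 1.31 and 1.34 in controls and at 0.830, 0.481 and 2.20 after PNMC, so that the PNMC values lay on both sides of the closely matched controls. Tfb1m, a relative of Tfb2m that methylates the small ribosomal RNA, was at 6.595 and 6.85 in controls and at 4.90, 5.27 and 6.39 after PNMC. All 3 PNMC values of Tfb1m lay below both controls, by a log2 difference of -0.25 (SE 0.283, 95% interval -0.86 to 0.36). The ratio of Tfb2m to Tfb1m was 6.51 and 5.74 in controls and 8.06, 9.14 and 7.21 after PNMC. Other ratios went other ways. That of Tfb2m to Polrmt was 9.64 and 5.55 against 5.63, 10.6 and 17.4. That of Tfb2m to Tfam was 10.6 and 21.7 against 10.1, 10.5 and 6.87. The ratio of Ssbp1 to Tfam was 3.87 and 9.32 against 3.70, 3.47 and 1.32. How often such ratios do not overlap over all genes was not counted. Mterf3, a member of the transcription termination factor family that represses transcription, was at 19.5 and 16.5 in controls and at 11.9, 24.0 and 21.7 after PNMC. Mterf4, a family member that acts in ribosome assembly, was at 16.2 and 8.94 in controls and at 13.4, 10.7 and 11.9 after PNMC, all between the controls.

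Processing begins with the cleavage of transfer RNAs from the precursor. Trmt10c, a subunit of the RNase P that cuts their 5′ ends, was at 15.02 and 12.7 in controls and at 10.9, 12.2 and 5.21 after PNMC. All 3 PNMC values lay below both controls, and the log2 difference of -0.58 (SE 0.318, 95% interval -1.26 to 0.10, limma unadjusted p = 0.0905, adjusted p = 0.993) did not pass the test. Without PNMC library 3 it was -0.24, and without PNMC library 2 it was -0.79. Elac2, the RNase Z that cuts the 3′ ends, was at 19.3 and 23.2 in controls and at 21.6, 19.2 and 23.4 after PNMC. Mtpap, the poly(A) polymerase of mitochondria, was at 22.07 and 20.4 in controls and at 22.12, 23.2 and 26.0 after PNMC (all above both controls, with PNMC library 1 close to the 22.07 of control library 1). Its log2 difference was 0.15 (SE 0.201, 95% interval -0.28 to 0.59).

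Stability of the messenger RNAs depends on Lrpprc with its partner Slirp and on the FASTK family of RNA-binding proteins. Lrpprc was at 2.63 and 1.34 in controls and at 2.51, 0.885 and 2.04 after PNMC. Slirp was listed at 0.360 and 0.104 in controls and at 0.260, 0.267 and 0.305 after PNMC, and it was the only member below a value of 1 in every library and so was not tested. Fastkd1 was at 29.5 and 31.1 in controls and at 19.3, 26.7 and 28.9 after PNMC, all below both controls, with a log2 difference of -0.29 (SE 0.215, 95% interval -0.75 to 0.17) that was between -0.40 and -0.12 with 1 library left out. Fastkd2 was at 7.71 and 7.77 in controls and at 9.35, 9.77 and 5.35 after PNMC. Fastkd5, which takes part in cutting messenger RNAs that no transfer RNA flanks, was at 9.21 and 12.2 in controls and at 10.4, 9.70 and 14.1 after PNMC. Tbrg4, also called Fastkd4, was at 29.9 and 15.5 in controls and at 24.6, 23.6 and 21.6 after PNMC, all between the controls. In Fastkd2, Fastkd5, Tbrg4 and Lrpprc the groups overlapped.

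**Figure D3:**
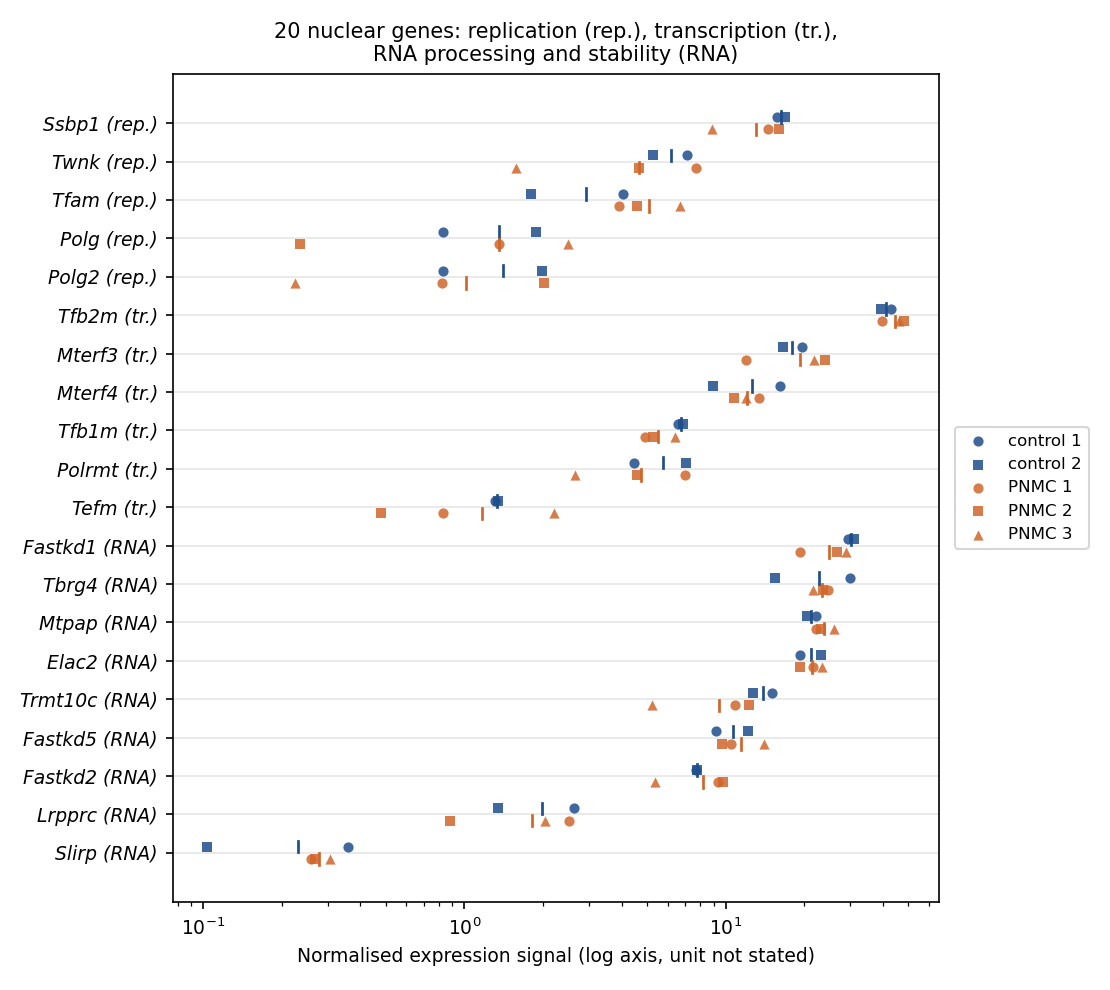
Normalised signal (log axis) of the 20 nuclear genes by role, with a point per library and a vertical bar at each group mean (2 control and 3 PNMC libraries). Tfb2m is highest at a mean of 43.2 and Slirp lowest at 0.259, and the points of genes under about 3 spread widely within both groups.

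No member differed between PNMC and control embryos at a limma adjusted p under 0.05. Of the 32 members tested, 0 passed, against 0.0% of the 12734 genes tested, and the smallest adjusted p of a member was 0.993. At an unadjusted p under 0.05 there were also 0 members, against 4.99% of the genes tested (1.73% higher and 3.27% lower after PNMC). Of the 32, the groups did not overlap in 5, against 19.9% of the genes tested: 2 were higher after PNMC (mt-Nd3 and Mtpap) and 3 lower (Tfb1m, Trmt10c and Fastkd1). The median log2 difference was -0.044 over the 13 mitochondrial coding genes, of which 2 were above 0 and 11 below. It was -0.085 over the 19 nuclear members tested, of which 8 were above 0 and 11 below. The median over all genes tested was -0.048, so both lists lay close to it. After median scaling, which moved the median of all genes to 0.029, the signs of mt-Nd4, mt-Nd4l, mt-Nd6, mt-Cytb, mt-Co1, mt-Co2, mt-Co3, mt-Atp6 and Mterf4 turned positive.

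The intervals say how large a difference these libraries leave room for. All 13 mitochondrial coding genes had 95% intervals between -0.44 and 0.38 on the log2(value + 1) scale. Among the 19 nuclear members tested, 12 had intervals within 1 log2 unit in either direction, where 61.4% of all genes tested did. The intervals of Polg, Polg2, Twnk, Tfam, Polrmt, Tefm and Trmt10c went beyond 1 unit, the widest bounds being -1.44 for Twnk and 1.44 for Tfam. Low genes are compressed on this scale, so that a larger change in the value itself would be possible for Polg, Polg2 and Tefm.

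**Figure D4:**
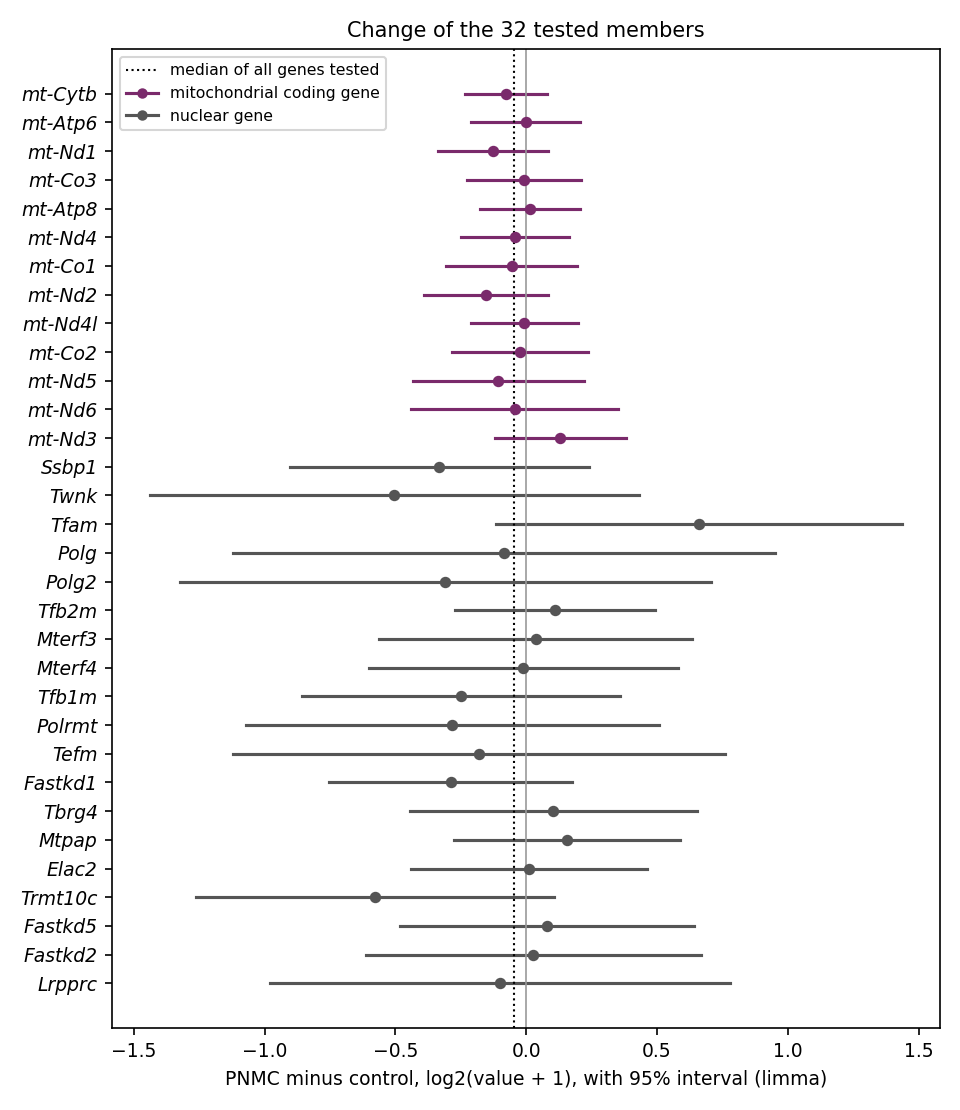
Difference between PNMC and control on the log2(value + 1) scale for the 32 members tested (point) with limma's 95% interval (line) from 3 PNMC and 2 control libraries. Every interval contains 0. The dotted line marks the median of all genes tested, -0.048, and the mitochondrial coding genes have narrower intervals than most of the nuclear genes.

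A wider list of the pathway held 83 names, of which 82 were in the table and 75 were tested. None passed limma's adjusted threshold, 0 were higher and 2 lower at an unadjusted p under 0.05, and the groups did not overlap in 3 higher and 9 lower genes. Of all genes tested, 1.73% were higher and 3.27% lower at that p, and 7.97% lay above and 11.9% below without overlap, so the counts of the list were near or under the background. Its median log2 difference was -0.016. The lower genes with the smallest p were Gabpb2, a subunit of the factor GABP, and Dna2, a nuclease and helicase of DNA repair. Gabpb2 was at 4.24 and 5.07 in controls and at 1.46, 2.41 and 2.24 after PNMC (limma unadjusted p = 0.0194, adjusted p = 0.967). The other GABP subunits on the list, Gabpa and Gabpb1, had far higher means of 83.1 and 87.2. Their log2 differences were 0.15 and 0.089, with overlapping groups. Dna2 was at 11.9 and 8.80 in controls and at 6.54, 7.18 and 4.59 after PNMC (limma unadjusted p = 0.0334, adjusted p = 0.967). On the higher side were Dguok, a kinase that supplies mitochondrial nucleotides, at 23.7 and 19.1 in controls and 23.0, 35.7 and 31.9 after PNMC, and Guf1, a factor of mitochondrial translation, listed at 0 and 0.106 in controls and at 1.34, 0.291 and 1.44 after PNMC. The groups overlapped for Dguok. Guf1 had a mean of 0.636 and reached 1, the filter's minimum, only in PNMC libraries 1 and 3. It was thus admitted to the test by the group where it was high. Its place here and among the 3 higher genes without overlap is no evidence of a change. The highest levels of the wider list were those of Nsun4, the methyltransferase that works with Mterf4, and of Angel2. Nsun4 was at 247 and 252 in controls and at 269, 241 and 278 after PNMC, and Angel2 at 214 and 243 against 229.9, 225 and 275. Nsun4 thus exceeded each of the nuclear members by several times in every library.

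GABP is a factor long linked to genes of mitochondrial biogenesis, and its letters were looked for in the members' promoters with those of NRF1 and YY1, other factors so linked. RefSeq promoters on the build GRCm38.p6, running from 250 bases before to 50 bases after a gene start, were matched for 18 of the 20 nuclear members. The letters CCGGAAG, searched on both strands, were found in promoters of 12 of these genes, and in 8.86% of all 32851 promoters of that length. The units differ, since the members were counted by gene, over 19 promoters, and the share is per promoter. That share also covers genes not expressed in these embryos, and the share among expressed genes was not counted. The letters GCGCATGCG, a site of the factor NRF1, were in the promoter of Tfb2m alone among the members and in 1.75% of all promoters. With a further C at the end, the form searched first, they were in 0 members and 0.971% of all promoters. The letters AAGATGGCG, a site of YY1, were in those of Slirp and Tbrg4 and in 1.4% of all promoters. A match is a description of the sequence, and binding was not measured. Stretches of 61 bases upstream of the gene start are shown for Tfam, Polrmt and Ssbp1, which pack, transcribe and protect the mitochondrial DNA, with the matching letters or their reverse complement in capitals. GABP was chosen for display after the counts were seen.
Tfam promoter (chr10:71238058-71238118, minus strand): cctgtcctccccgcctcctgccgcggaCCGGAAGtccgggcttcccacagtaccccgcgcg
Polrmt promoter (chr10:79746591-79746651, minus strand): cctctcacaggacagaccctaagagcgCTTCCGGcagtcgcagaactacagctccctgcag
Ssbp1 promoter (chr6:40471394-40471454, plus strand): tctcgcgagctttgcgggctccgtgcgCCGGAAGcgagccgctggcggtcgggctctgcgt
In Tfam the match began 47 bases before the gene start, in Polrmt 43 and in Ssbp1 47. The letters were also in the promoters of Fastkd5, Mterf4, Polg, Polg2, Slirp, Tbrg4, Tefm, Trmt10c and Twnk. Of the 5 nuclear members with a mean under 3, Polg, Polg2, Tefm and Slirp held the letters and Lrpprc did not. Among the 5 with a mean of at least 20, Tbrg4 held them, Tfb2m, Fastkd1 and Elac2 did not, and Mtpap had no matched promoter. A link between the letters and the level was not tested.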

How the data were processed

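The authors deposited a table of normalised signal per gene symbol and library, whose unit is not stated. Per the submitters' processing notes, the build was GRCm39 and the tools included HTSeq, DESeq2 1.16.1, HISAT2 2.0.5 and Trimmomatic, with no role given for each. Sums of 446010 to 454548 per library show that the values are neither raw counts nor a CPM-like unit. Whole reads could not be recovered from the low values, which is why count models and counting intervals were not used. Columns were matched to samples by title.

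The fit kept the 12734 genes that reached 1 in 2 or more of the 5 libraries. Values were transformed to log2(value + 1), and groups were compared in 1 fit over all genes by limma 3.58.1 in R 4.3.3, with a mean-variance trend, robust variances and no covariate, adjusted by Benjamini-Hochberg at 0.05. Errors are SDs over 2 control and 3 PNMC libraries. Differences on this scale understate changes of low genes. The procedure was tested on simulated data with changes planted only in genes at higher levels, so that test did not cover members at low levels. All 33 members are named. Of the wider list, the 2 genes of each direction with the smallest p and the 2 highest were named. Gabpa and Gabpb1 were added beside Gabpb2, as subunits of the same factor. Members and lists were chosen with earlier results of these data known. Alternatives were another pseudocount, other filters, 3 other scalings, another variance model, a replicate block and leaving out each library. RefSeq and GENCODE sequences are on GRCm38, and no coordinates were taken from the authors' build.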

Additional observations from a re-analysis of the deposited data

How the results depend on the processing

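Members past the adjusted threshold numbered 0 under each of the 13 alternatives, with a member's smallest adjusted p of 0.766 without PNMC library 2. Over all genes 1 passed without PNMC library 1, and it was no member. At an unadjusted p under 0.05, 2 members passed under quantile normalisation (mt-Nd1 and mt-Nd4), where 615 of the 12734 genes did. With 1 PNMC library left out 0 to 4 members passed. Without PNMC library 2 they were mt-Nd1, mt-Nd2, mt-Cytb and Trmt10c, where 752 of the 12734 genes passed. Without PNMC library 1 it was Twnk, where 608 genes passed. The log2 difference of Tfam was 1.09 without control library 1. Over all genes 636 passed in the main fit, 210 of 5675 with a minimum of 10, and 525 to 752 with 1 PNMC library left out. Of the 636, 34.6% were higher after PNMC, a share of 50.6% under quantile normalisation, 59.0% after median scaling and 51.2% without control library 2. The median log2 difference of the nuclear members, -0.085, was -0.17 with a pseudocount of 0.1, 0.024 with a minimum of 10, 0.013 under quantile normalisation, -0.0085 after median scaling, and -0.12 to 0.053 with 1 library left out. That of the wider list was 0.033 under quantile normalisation, 0.060 after median scaling, and -0.082 to -0.015 with 1 library left out. That of the mitochondrial coding genes ranged from -0.12 to 0.040 with 1 library left out. The difference in their share of the signal, -0.31 percentage points, ranged from -0.67 to -0.071. The causes were not tested. The unknown depth limits what low genes such as Polg, Polg2 and Tefm can show.

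Signs turned in 21 of the 32 members under at least 1 alternative, with no call on either side. Under quantile normalisation mt-Atp8 was -0.038, Polg 0.013 and Mterf4 0.043. After median scaling mt-Nd4 was 0.032, mt-Nd4l 0.068, mt-Nd6 0.032, mt-Cytb 0.00035, mt-Co1 0.020, mt-Co2 0.053, mt-Co3 0.068, mt-Atp6 0.074 and Mterf4 0.065. Rescaled to the signal without the mitochondrial coding genes, mt-Atp8 was -0.0029 and Elac2 -0.0071. With the replicate number as a block, whose estimates are those without PNMC library 3 because no control shares its number, mt-Co2 was 0.041, mt-Co3 0.045, mt-Atp6 0.059, Polg2 0.0026, Polrmt 0.0093, Mterf3 -0.076, Elac2 -0.054 and Fastkd5 -0.070. The block called 0 members and 544 genes at an unadjusted p under 0.05. Same-numbered libraries did not deviate together (r of deviations over genes -0.058 for number 1 and -0.043 for number 2). With only 2 controls, the deviations of each mirror those of the other. These values therefore cannot decide whether same-numbered libraries shared a culture or day.

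With 1 library left out, the log2 differences ranged from -0.13 to 0.038 for mt-Nd4, -0.061 to 0.038 for mt-Nd4l, -0.32 to 0.11 for mt-Nd5, -0.38 to 0.29 for mt-Nd6, -0.17 to 0.062 for mt-Co1, -0.15 to 0.041 for mt-Co2, -0.12 to 0.047 for mt-Co3, -0.11 to 0.059 for mt-Atp6, -0.050 to 0.069 for mt-Atp8, -0.43 to 0.32 for Polg, -0.66 to 0.042 for Polg2, -0.56 to 0.0093 for Polrmt, -0.50 to 0.057 for Tefm, -0.14 to 0.33 for Mterf3, -0.41 to 0.38 for Mterf4, -0.12 to 0.14 for Elac2, -0.42 to 0.22 for Lrpprc, -0.11 to 0.27 for Fastkd2, -0.11 to 0.26 for Fastkd5 and -0.35 to 0.56 for Tbrg4. Where the sign did not turn in this way, they ranged from -0.22 to -0.031 for mt-Nd1, -0.26 to -0.081 for mt-Nd2, 0.073 to 0.19 for mt-Nd3, -0.14 to -0.040 for mt-Cytb, -0.90 to -0.020 for Twnk, -0.48 to -0.093 for Ssbp1, 0.24 to 1.09 for Tfam, -0.34 to -0.18 for Tfb1m, 0.048 to 0.19 for Tfb2m, -0.79 to -0.24 for Trmt10c, 0.091 to 0.21 for Mtpap and -0.40 to -0.12 for Fastkd1.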
